A study of Rattus norvegicus with 22 samples.

Results

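The genes described here carry the cyclic AMP (cAMP) signal and a set of kinase signals that have been tied to the response of neurons to alcohol. They were Adcy3, Adcy7 and Adcy9, which encode adenylyl cyclases, Prkaca, Prkacb and Prkar2b, which encode subunits of protein kinase A (PKA), the transcription factor gene Creb1, and the kinase genes Prkce, Fyn and Mtor. They were found by exact gene symbol among the 17310 symbols listed in the count tables, and 9 of the 10 were present. Adcy9 was not among the listed symbols, so its expression was not analysed here.

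Adenylyl cyclases make cAMP when G protein-coupled receptors, such as the dopamine receptors of striatal neurons, engage stimulatory G proteins. Cyclic AMP binds the regulatory subunits of PKA and frees the catalytic subunits, which phosphorylate channels, receptors, phosphatase inhibitors and the transcription factor CREB. The nucleus accumbens (NAc), a ventral striatal region studied for its part in reward, uses this pathway heavily. Protein kinase C epsilon, the Src family kinase Fyn and the growth-related kinase mTOR are known from rodent work as proteins whose activity or loss alters the response to alcohol. All of these proteins are controlled largely by phosphorylation, binding and location, which read counts do not measure.

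RNA was measured in the NAc of 22 male outbred Wistar rats in 2 experiments, with 1 library per rat. In experiment 1, 5 rats drank water only and 5 rats had free access to 6 v/v % ethanol (EtOH) beside water for 8 weeks. In experiment 2, all 12 rats had EtOH and water to drink for 4 weeks, a gavage period of 3 weeks followed, and all had EtOH and water again for the final 2 weeks. The study describes access of the water gavage rats as continuous over the period, and whether the EtOH gavage rats could drink EtOH during the gavage is not stated. During the gavage 6 rats received EtOH (2.5 g/kg of a 30 v/v % solution, 2 times daily) and 6 received water, so that both groups had consumed EtOH and no rat of experiment 2 had water alone. The tissue held core and shell of the NAc together. In such bulk tissue, fewer cells of a type and less RNA per cell cannot be told apart.

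The libraries held 2962291 to 5247386 reads on genes in experiment 1 and 6713617 to 8765472 in experiment 2. All 10 markers of striatal projection neurons were present, with a summed level of 2286 to 4334 CPM (counts scaled to a common library total) in experiment 1 and 3499 to 6470 CPM in experiment 2. In experiment 2 the libraries of water gavage rat 1 and of EtOH gavage rats 1 and 2 stood apart, with 54.5%, 58.0% and 56.4% of reads outside annotated genes, as a percentage of these reads plus those on genes. The share was 46.1% to 52.8% in the other 9 libraries of experiment 2 and 48.4% to 51.1% in experiment 1. Its mean was 50.1% ± 3.09 (SD, n = 6) in the water gavage group and 52.9% ± 3.42 (SD, n = 6) in the EtOH gavage group (exact two-sided permutation test, p = 0.175).

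No gene of the set passed a false discovery rate (FDR) of 0.05 in either experiment. Of the 9 measured genes, 7 were above the filter on low counts and were tested in both experiments, while Adcy7 and Creb1 were below it. In experiment 1, 0 of the 7 passed by the quasi-likelihood test of edgeR, adjusted by Benjamini-Hochberg, and by DESeq2. Of all genes, 0 of the 8655 tested in edgeR (0%) and 0 of the 14024 fitted in DESeq2 passed. At an unadjusted p under 0.05 in edgeR, 1 of 7 was counted in experiment 1, Prkar2b, against 5.58% of all tested genes (3% higher and 2.58% lower in EtOH rats). In experiment 2, 0 of 7 passed and 0 of 7 had an unadjusted p under 0.05, by edgeR and by DESeq2. Of all tested genes 0% passed in either tool, and the unadjusted p was under 0.05 for 1.33% in edgeR (0.705% higher and 0.624% lower) and for 2.23% of the 14121 genes in DESeq2. In each of the 9 genes the values of the EtOH and water rats overlapped in both experiments. Over all tested genes the groups did not overlap for 0.843% in experiment 1 (0.404% lower in EtOH rats) and for 0.0116% in experiment 2, where the only such gene was lower after EtOH gavage.

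**Figure D1:**
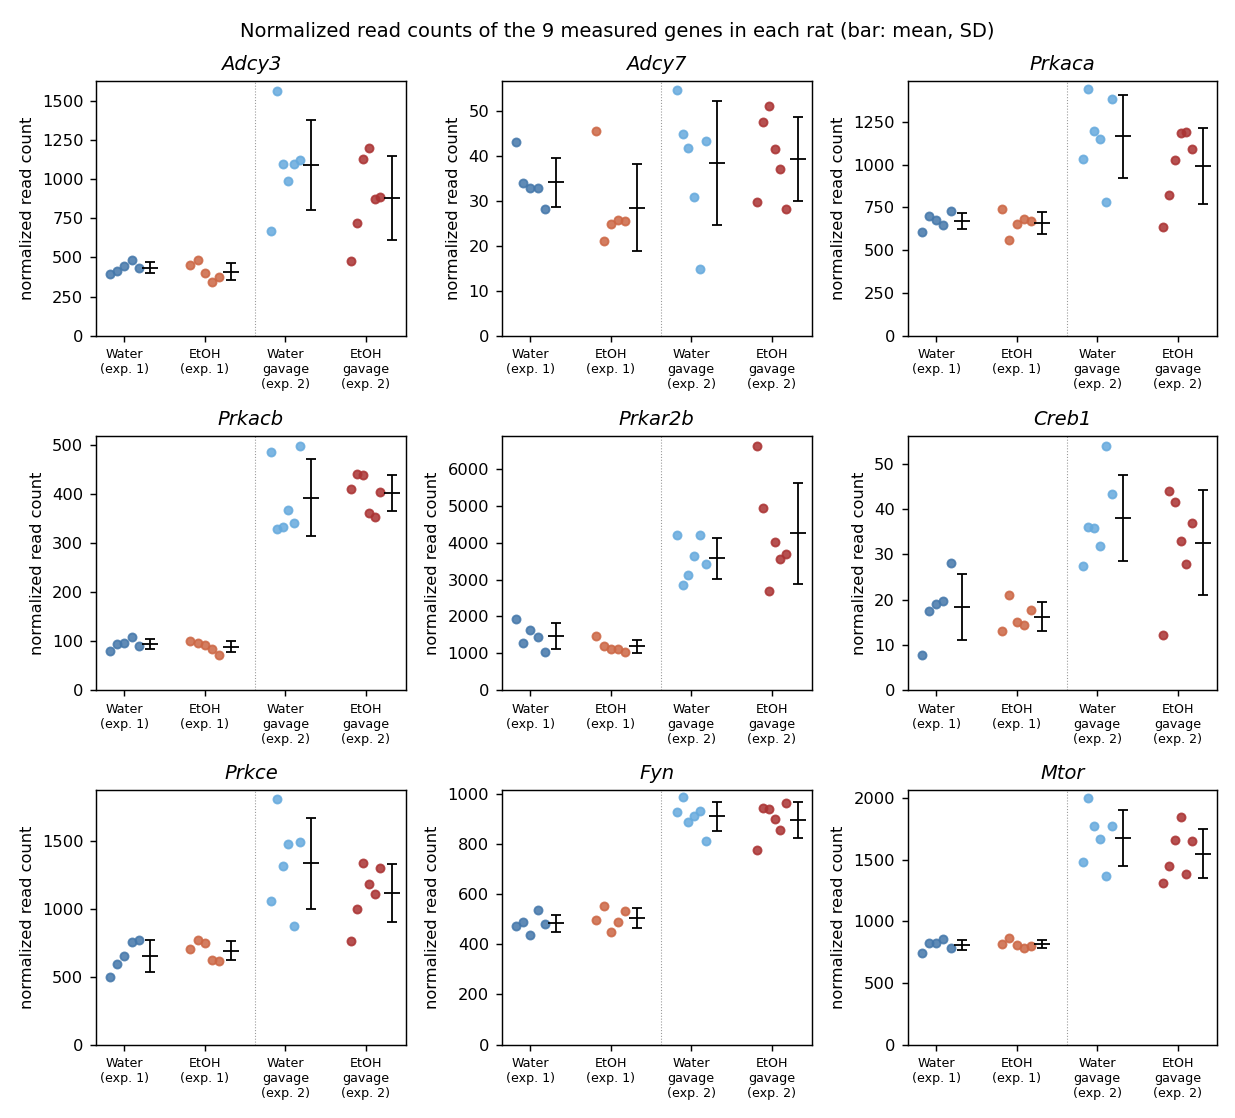
Normalized read count (y axis, linear, from 0) of each of the 9 measured genes in each of the 22 rats, by group and experiment, with the mean and SD beside the points. The EtOH and water points overlap in every panel, and Prkar2b of EtOH gavage rat 1 stands at 6631, above the other 11 rats of experiment 2. The experiments were normalized separately, so heights are not comparable across the dotted line.

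**Figure D2:**
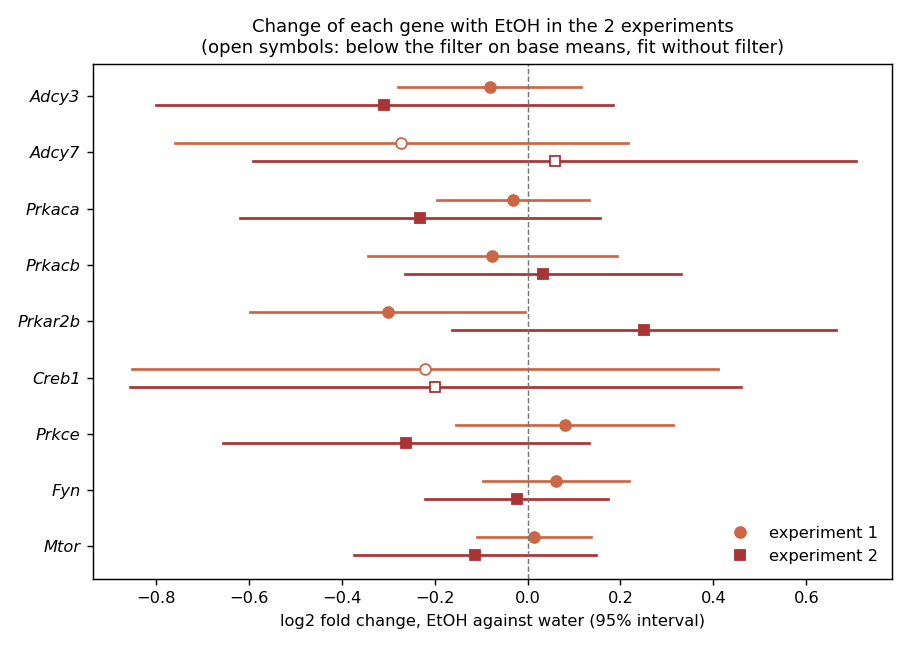
Log2 fold change of EtOH against water rats (x axis) with its 95% confidence interval for the 9 measured genes, in experiment 1 (circles) and experiment 2 (squares). The interval leaves out 0 for Prkar2b in experiment 1 only (-0.60 to -0.01), and Adcy7 and Creb1, shown with open symbols, come from a fit with no filter on low counts.

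Adcy3 encodes a calmodulin-responsive cyclase found in primary cilia as well as at synapses. In experiment 1 the water rats had 393, 413, 443, 484 and 431 normalized counts of Adcy3 and the EtOH rats 449, 484, 397, 346 and 372. The lowest 2 EtOH rats were below every water rat, and the others lay within the water range. The log2 fold change was -0.08 with a standard error (SE) of 0.0921 and a 95% confidence interval of -0.28 to 0.11 (edgeR, unadjusted p = 0.388, FDR = 0.962). The counts of experiment 2 ran from 666 through a median of 1096 to 1564 after water gavage and from 475 through 877 to 1197 after EtOH gavage. The log2 fold change of Adcy3 there was -0.31 (SE 0.228, interval -0.80 to 0.18, edgeR FDR = 0.675), and 4 of 6 EtOH gavage rats were below the water gavage median. Leaving out 1 rat at a time gave -0.42 to -0.18 for Adcy3, with -0.18 both without EtOH gavage rat 1 and without water gavage rat 2.

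Adcy7 encodes the cyclase best known for being enhanced by EtOH. It was counted at only 21 to 45 reads per library in experiment 1 and 14 to 54 in experiment 2, which limits what these libraries can resolve. Its normalized counts in experiment 1 were 43.0, 33.9, 32.8, 32.8 and 28.1 in water rats and 45.5, 21.0, 24.8, 25.7 and 25.5 in EtOH rats. In this gene 4 of 5 EtOH rats were below the lowest water rat and the remaining rat was above the highest, so the groups overlapped through 1 library (exact two-sided permutation test on log2 CPM, p = 0.214). A fit with no filter gave a log2 fold change for Adcy7 of -0.27 (interval -0.76 to 0.22) in experiment 1 and 0.06 (interval -0.59 to 0.71) in experiment 2. After gavage in experiment 2 the counts were 14.8 to 54.7 after water gavage, with a median of 42.6, and 28.2 to 51.2 after EtOH gavage, with a median of 39.3.

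Prkaca and Prkacb encode the 2 main catalytic subunits of PKA. In experiment 1 Prkaca was counted at 608, 701, 676, 647 and 729 in water rats and at 737, 558, 651, 685 and 667 in EtOH rats. The highest and the lowest rat were both EtOH rats. The log2 fold change was -0.03 (SE 0.0766, interval -0.19 to 0.13, edgeR FDR = 0.988). Prkacb had 79.5, 93.5, 95.5, 109 and 91.0 normalized counts in water rats and 101, 97.0, 91.3, 83.1 and 71.9 in EtOH rats, and the groups again lay over each other. Its log2 fold change was -0.08 (SE 0.125, interval -0.34 to 0.19, edgeR FDR = 0.983).

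In experiment 2 Prkaca ran from 783 through a median of 1173 to 1443 after water gavage and from 637 through 1059 to 1189 after EtOH gavage. Prkacb ran from 328 through 355 to 499 after water gavage and from 354 through 408 to 442 after EtOH gavage. The estimates were thus on opposite sides of 0 for the pair, at -0.23 for Prkaca (SE 0.180, interval -0.62 to 0.16) and 0.03 for Prkacb (SE 0.138, interval -0.26 to 0.33), and neither differed from 0 beyond the spread among rats (edgeR FDR = 0.675 and 0.906). With 1 rat left out at a time Prkaca gave -0.32 to -0.13, the latter without EtOH gavage rat 1.

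Prkar2b encodes RII beta, the type II regulatory subunit that is abundant in striatal neurons and is held near its targets by A-kinase anchoring proteins. It was the gene of the set with the lowest p in experiment 1. The water rats had 1937, 1274, 1635, 1445 and 1028 normalized counts, and the EtOH rats 1478, 1192, 1111, 1115 and 1039. The upper end of the water group was well above the EtOH group, but the lowest rat of all was water rat 5, and 4 of 5 EtOH rats were below the water median. The group means were 1464 ± 346 (SD, n = 5) and 1187 ± 172 (SD, n = 5). The log2 fold change was -0.30 (SE 0.139, interval -0.60 to -0.01), a ratio of 0.812 (interval 0.661 to 0.996), with an unadjusted p of 0.0464 and an FDR of 0.866 in edgeR. The exact two-sided permutation test on log2 CPM gave p = 0.167, where 0.00794 is the smallest p that 5 against 5 rats allow.

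The estimate for Prkar2b depended on which rats were included. Without water rat 1 the log2 fold change was -0.18 (edgeR, unadjusted p = 0.163), and without water rat 5 it was -0.41 (edgeR, unadjusted p = 0.00306, FDR = 0.243). An unadjusted p under 0.05 was kept without water rat 2 (0.0349), water rat 5 or EtOH rat 1 (0.0145), and was lost without any one of the other 7 rats in edgeR. With water rats 1 and 4 both left out, a choice made after seeing the data, the log2 fold change was -0.15 (edgeR, unadjusted p = 0.303). The coefficient of variation of Prkar2b among the water rats was 23.7%, above that of 92.2% of tested genes, against 14.5% among the EtOH rats. Of the rats of experiment 1, water rat 1 had the highest summed striatal projection neuron markers (4334 CPM) and the lowest cortical ones (90.1 CPM). Water rat 5 had the highest cortical sum (678 CPM) and the lowest striatal sum of the water group (2494 CPM). EtOH rat 2 had a striatal sum of 4271 CPM with 1192 counts of Prkar2b. The part of tissue composition in the estimate was not tested.

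In experiment 2 Prkar2b had 2858 to 4223 normalized counts after water gavage, with a median of 3530, and 2700 to 6631 after EtOH gavage, with a median of 3858. The estimate there was on the other side of 0, with a log2 fold change of 0.25 (SE 0.192, interval -0.16 to 0.66, edgeR FDR = 0.675). Without EtOH gavage rat 1, which had the 6631 counts, it was 0.08. The effect in experiment 2 minus that in experiment 1 was 0.55 for Prkar2b (SE 0.261, interval 0.01 to 1.09), with an unadjusted p of 0.0470 and an FDR of 0.813 in edgeR over 8176 genes tested in both. Of those genes 1.88% had an unadjusted p under 0.05 in this test and 0% passed the FDR. In the other 6 genes of the set the unadjusted p of the difference was 0.173 to 0.563 in edgeR. Without the 3 libraries of experiment 2 with the highest share of reads outside genes, the difference for Prkar2b was 0.32 (edgeR, unadjusted p = 0.162).

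The balance of PKA subunits was also compared within each rat, as ratios of read counts, which do not depend on how libraries are scaled to one another. The count of Prkaca was 5.94 to 8.01 times that of Prkacb in water rats and 5.75 to 9.28 times in EtOH rats of experiment 1. These ranges nearly coincided (difference of mean log2 ratios 0.05, exact two-sided permutation test, p = 0.754). In experiment 2 the ratio was 2.12 to 4.40 after water gavage and 1.55 to 3.36 after EtOH gavage (difference -0.29, exact permutation p = 0.262). The count of Prkar2b relative to both catalytic subunits together was 1.25 to 2.82 in water rats and 1.41 to 1.82 in EtOH rats (difference -0.25, exact permutation p = 0.278). In experiment 2 it was 1.61 to 3.75 after water gavage and 1.84 to 6.33 after EtOH gavage (difference 0.36, exact permutation p = 0.288). The adjusted p over these 4 exact permutation tests was 0.384 to 0.754, and no ratio was shown to differ between groups. Without the 3 libraries named above, the differences in experiment 2 were -0.13 and 0.04.

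**Figure D3:**
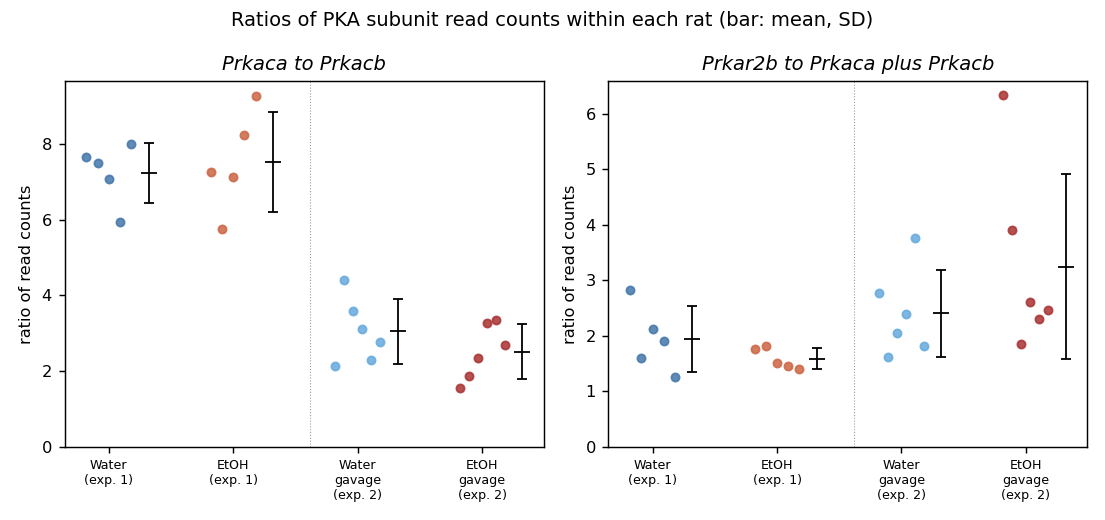
Ratios of PKA subunit read counts within each rat (y axes, linear, from 0), with the mean and SD of each group: Prkaca to Prkacb on the left and Prkar2b to the sum of both on the right. The EtOH and water ranges overlap in both experiments, and EtOH gavage rat 1 has the highest Prkar2b ratio, 6.33. Read lengths and kits differed between experiments.

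Creb1 encodes the CREB protein, which binds cAMP response elements and is switched on by phosphorylation. It was the least counted gene of the set, with 6 to 38 reads per library in experiment 1 and 11 to 51 in experiment 2. The normalized counts were 7.82, 17.5, 19.0, 19.7 and 28.1 in water rats and 13.003, 21.0, 15.1, 14.4 and 17.7 in EtOH rats, so the EtOH rats lay inside the water range. In experiment 2 they were 27.3 to 53.9 after water gavage and 12.1 to 44.0 after EtOH gavage, with medians of 35.8 and 34.9. With no filter the log2 fold changes of Creb1 were -0.22 (interval -0.85 to 0.41) and -0.20 (interval -0.86 to 0.46). At this depth the counts set only these wide bounds on a change in either direction.

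The promoters of the genes were searched for the cAMP response element because it is the sequence through which CREB acts. The search used the 250 bases before each RefSeq start (build GRCr8, not the build of the counts), on both strands, for the full element TGACGTCA and for its part TGACG or CGTCA, which the full element also contains. A promoter was on hand for 9 of the 10 genes, Adcy9 included and Adcy3 not, with 10 starts in all. The full element was in 0 of 10 starts, against 1.59% of all 33469 promoters searched in the same way. The short motif was in 3 of 10 starts (Prkaca, Adcy9 and the first start of Creb1), against 18.2% of all promoters. At least 2 matches, as Prkaca and the first start of Creb1 have, were in 3.98% of all promoters. Prkaca and Mtor are printed because both tracked the share of reads outside genes in experiment 2 while 1 holds the motif and the other does not. Each reads 5′ to 3′ on the strand of the gene, and capitals mark the short motif. A match describes letters only.
Prkaca, chr19:41083190-41083439, minus strand: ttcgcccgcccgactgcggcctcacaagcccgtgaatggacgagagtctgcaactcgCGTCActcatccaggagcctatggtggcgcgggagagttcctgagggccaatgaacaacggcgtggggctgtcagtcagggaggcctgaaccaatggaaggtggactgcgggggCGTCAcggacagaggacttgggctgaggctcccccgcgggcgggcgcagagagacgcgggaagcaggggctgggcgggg
Mtor, chr5:164167735-164167984, plus strand, with no match: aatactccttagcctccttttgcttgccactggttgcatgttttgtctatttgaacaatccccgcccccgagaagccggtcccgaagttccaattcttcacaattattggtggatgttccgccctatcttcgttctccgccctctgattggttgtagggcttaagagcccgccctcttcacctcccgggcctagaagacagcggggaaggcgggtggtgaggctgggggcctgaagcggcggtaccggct

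Prkce encodes protein kinase C epsilon, a calcium-independent kinase whose loss in mice is known to lower alcohol intake. In experiment 1 it had 498, 593, 652, 759.9 and 773 normalized counts in water rats and 705, 773, 747, 624 and 618 in EtOH rats. The groups overlapped, with 2 of 5 EtOH rats below the water median and 1 just above the highest water rat. The log2 fold change was 0.08 (SE 0.109, interval -0.15 to 0.31, edgeR FDR = 0.972). In experiment 2 Prkce was the gene of the set with the lowest p, at an unadjusted p of 0.175 (edgeR). There it ran from 873 through a median of 1399.6 to 1814 after water gavage and from 764 through 1149.6 to 1341 after EtOH gavage. All 6 EtOH gavage rats were below the water gavage median, while 2 of the water gavage rats were below the EtOH gavage median. The log2 fold change was -0.26 (SE 0.183, interval -0.66 to 0.13, edgeR FDR = 0.675), with an exact two-sided permutation p of 0.247. Leaving out 1 rat at a time gave -0.36 to -0.16 for Prkce, with -0.16 without water gavage rat 2 and -0.17 without EtOH gavage rat 1.

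Fyn encodes a Src family kinase that phosphorylates NMDA receptors, and was the steadiest gene of the set in experiment 2. It had 473, 489, 439, 535 and 481 normalized counts in water rats and 497, 551, 451, 487 and 532 in EtOH rats, with a log2 fold change of 0.06 (SE 0.0736, interval -0.10 to 0.22, edgeR FDR = 0.964). The groups covered nearly the same range. In experiment 2 it ran from 813 through a median of 921 to 988 after water gavage and from 774 through 919 to 962 after EtOH gavage, which gave a log2 fold change of -0.02 (SE 0.0912, interval -0.22 to 0.17, edgeR FDR = 0.902). The coefficient of variation of Fyn in experiment 2 was 6.39% after water gavage and 7.91% after EtOH gavage, where the median tested gene had 21.1% and 25.4%. Only 2.25% and 3.07% of tested genes varied less in these groups.

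Mtor encodes the kinase of the mTOR complexes, which control translation and growth. In experiment 1 it had 745, 825, 826, 854 and 784 normalized counts in water rats and 817, 867, 810.0, 783 and 797 in EtOH rats. It varied least among the tested genes of the set in that experiment, with a coefficient of variation of 5.28% and 3.93%. Its log2 fold change was 0.01 (SE 0.0576, interval -0.11 to 0.14, edgeR FDR = 0.995), the narrowest interval of the 7. In experiment 2 it ran from 1367 through a median of 1719 to 2003 after water gavage and from 1308 through 1552 to 1843 after EtOH gavage. There 5 of 6 EtOH gavage rats were below the water gavage median, and the log2 fold change was -0.11 (SE 0.120, interval -0.37 to 0.15, edgeR FDR = 0.684).

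In experiment 2 the levels of 5 genes of the set followed the share of reads outside annotated genes, whichever group a rat belonged to. Many other genes did so too, with an absolute Pearson's r over 0.8 for 48.9% of all tested genes. The level (log2 CPM) was lower where the share was higher for Prkaca (Pearson's r = -0.882, Spearman's rho = -0.881, n = 12), with adjusted permutation p of 0.00228 and 0.00684 over 18 relations. For Adcy3 r was -0.876 and rho -0.734 (adjusted permutation p = 0.00228 and 0.0383). For Prkce r was -0.859 and rho -0.811 (adjusted permutation p = 0.00228 and 0.0118). For Mtor r was -0.808 and rho -0.832 (adjusted permutation p = 0.00425 and 0.0118). Prkar2b went the other way, with r = 0.833 and rho = 0.720 (adjusted permutation p = 0.00382 and 0.0383). The remaining 4 genes had r of -0.399 for Creb1, -0.343 for Fyn, -0.105 for Adcy7 and 0.540 for Prkacb, with adjusted permutation p of 0.126 to 0.788.

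The same relation was seen within each group of 6, with r of -0.892 for Mtor, -0.851 for Prkce, -0.820 for Adcy3, -0.720 for Prkaca and 0.939 for Prkar2b after water gavage. After EtOH gavage r was -0.980 for Prkaca, -0.881 for Adcy3, -0.842 for Prkce, -0.691 for Mtor and 0.8001 for Prkar2b. With the 2 rats farthest from the median share left out, r was -0.731 for Prkaca, -0.740 for Adcy3, -0.771 for Prkce, -0.739 for Mtor and 0.573 for Prkar2b (n = 10). These genes were not exceptional in this, since the absolute r exceeded 0.8 for 48.9% of all tested genes of experiment 2 and 1.32% of those of experiment 1, with medians of 0.792 and 0.283. In experiment 1, over a narrower range of the share, r was -0.829 for Prkce and -0.872 for Creb1 (n = 10, adjusted permutation p = 0.00735 and 0.00438), and -0.606 and -0.719 without the 2 farthest rats. The adjusted permutation p of Spearman's rho was 0.0520 for both. Groups of 5 were too small for within-group values there.

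With the share as a covariate, the log2 fold changes of experiment 2 were -0.01 for Adcy3, -0.01 for Prkaca, -0.06 for Prkacb, -0.02 for Prkar2b, -0.01 for Prkce, 0.0045 for Fyn and 0.02 for Mtor. With the 3 libraries of highest share left out, a choice made after seeing the data, they were -0.19 for Adcy3, -0.08 for Prkaca, 0.06 for Prkacb, 0.02 for Prkar2b, -0.17 for Prkce, 0.02 for Fyn and -0.07 for Mtor. With the covariate each estimate was smaller in size than its standard error. What the share stands for was not tested.

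**Figure D4:**
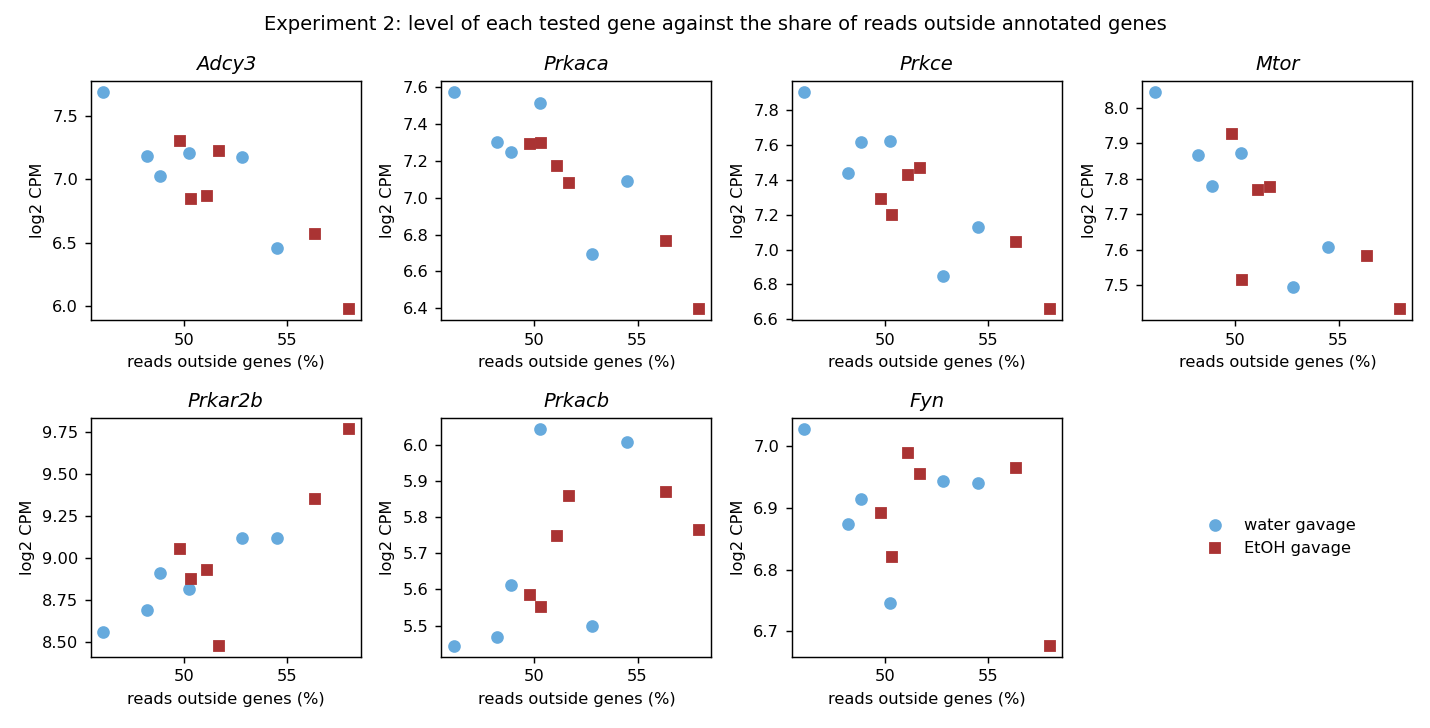
Level of each of the 7 tested genes (y axes, log2 CPM) against the percentage of reads outside annotated genes (x axes) in the 12 rats of experiment 2, by gavage group. Adcy3, Prkaca, Prkce and Mtor slope down (r from -0.882 to -0.808), Prkar2b slopes up (r = 0.833), and rats of both groups lie along the same slopes.

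The wider pathway was described with 7 lists of 121 genes in all, of which 116 were listed in the count tables. In experiment 1, 101 were tested and 0 passed an FDR of 0.05 in edgeR, while 3 were higher and 3 lower in EtOH rats at an unadjusted p under 0.05, or 5.94% against 5.58% of all tested genes. The median log2 fold change over the lists was -0.01, beside -0.0012 over all tested genes. In experiment 2, 99 were tested, 0 passed the FDR and 0 had an unadjusted p under 0.05 in edgeR, beside 1.33% of all tested genes, while DESeq2 counted 2 list genes under that p, beside 2.23% of its genes. The list genes of experiment 2 had a median of -0.04, beside 0.00088 over all tested genes. By list, the medians lay between -0.07 for phosphodiesterases and 0.07 for the protein kinase C family in experiment 1, and between -0.15 for cyclases and G proteins and 0.08 for PKA subunits, inhibitors and anchors in experiment 2. Values above 0 were found for 10 of 19 tested cyclase and G protein genes in experiment 1 and 5 of 19 in experiment 2, and for 6 and 10 of 15 genes of PKA subunits, inhibitors and anchors. Over all tested genes 49.5% and 50.1% were above 0.

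**Figure D5:**
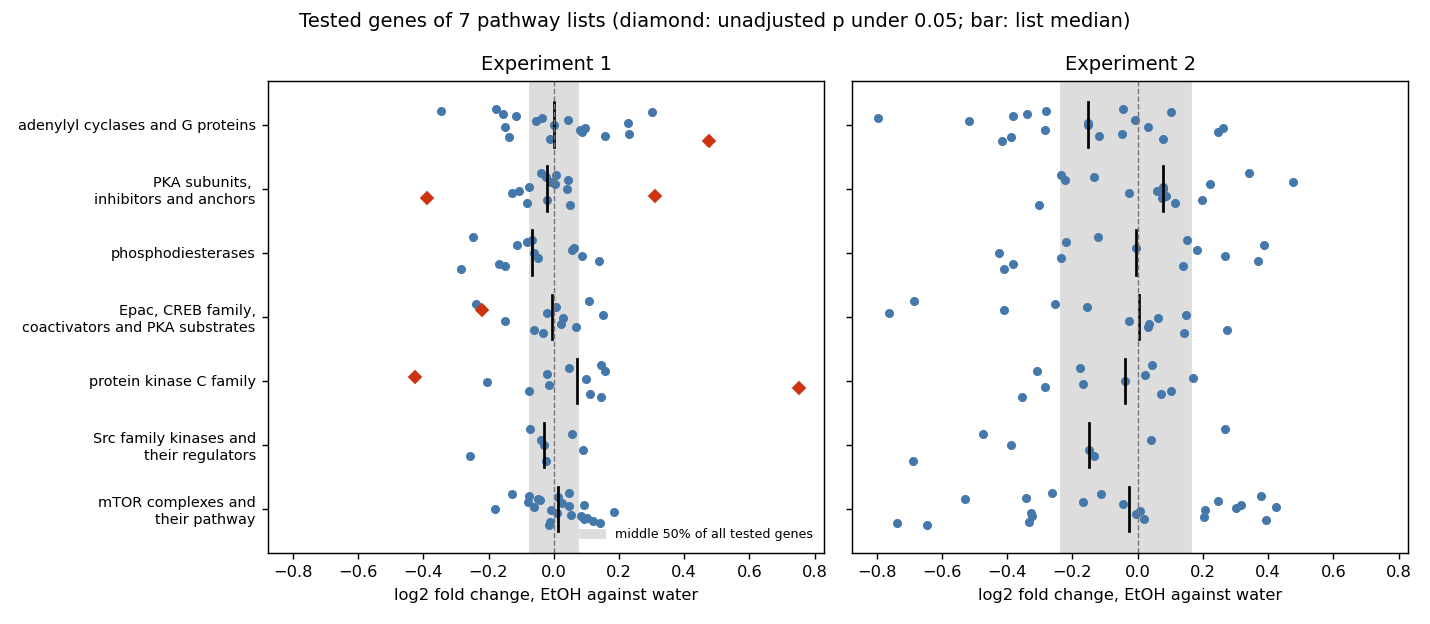
Log2 fold change of EtOH against water rats (x axes) for each tested gene of the 7 pathway lists, in experiment 1 (left) and experiment 2 (right). Black bars are list medians, the grey band holds the middle 50% of all tested genes, and red diamonds are the 6 genes with an unadjusted p under 0.05, all of them in experiment 1.

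Among the list genes with the lowest p in experiment 1, Prkcd, a calcium-independent protein kinase C, had 231 ± 87.8 (SD, n = 5) normalized counts in water rats and 398 ± 128 (SD, n = 5) in EtOH rats. Its log2 fold change was 0.75 (SE 0.244, edgeR, unadjusted p = 0.00762, FDR = 0.823), and the groups overlapped, at 131 to 346 and 232 to 571. In experiment 2 the estimate for Prkcd was -0.29 (edgeR, unadjusted p = 0.412). Prkcq, another protein kinase C gene, had a log2 fold change of -0.42 (edgeR FDR = 0.861) in experiment 1, and the PKA anchoring genes Akap12 and Akap13 had -0.39 and 0.31 (edgeR FDR = 0.861 and 0.866). Crtc2, a coactivator of CREB, had -0.22 (edgeR FDR = 0.866). The direction thus differed between members of the same list.

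The lowest p among list genes of experiment 2 belonged to Prkar2a, the regulatory subunit closest to Prkar2b, with a log2 fold change of 0.34 (edgeR, unadjusted p = 0.0508). It was followed by the S6 kinase gene Rps6kb2 at -0.53 and by the phosphodiesterase genes Pde1b at -0.38 and Pde10a at -0.41 (edgeR, unadjusted p = 0.0624, 0.0786 and 0.0885). Each of them had an FDR of 0.675 in edgeR. None was shown to differ between the gavage groups.

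The genes that make up the cAMP pathway of striatal projection neurons were read in both experiments whatever their p. Adcy5, the main striatal cyclase, had log2 fold changes of -0.14 and -0.39 in experiments 1 and 2, and Gnal, the G protein that couples dopamine receptors to it, had -0.15 and 0.03. Ppp1r1b, which encodes the PKA substrate DARPP-32, had -0.24 and -0.25. The striatal phosphodiesterase gene Pde10a had -0.28 and -0.41, the regulatory subunit gene Prkar1b 0.01 and -0.24, and Ptpn5, the gene of a phosphatase that acts on Fyn, -0.03 and -0.39. The FDR of these 12 values was 0.675 to 0.996 in edgeR, and the groups overlapped in each.

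Markers of other cell types were read beside these values. In experiment 1 the summed level of 5 neuroblast markers was 202 to 273 CPM in water rats and 276 to 387 CPM in EtOH rats, without overlap, and 3 of 3 tested were higher at an unadjusted p under 0.05 in edgeR. That of 7 vascular markers was 338 to 388 CPM and 369 to 467 CPM, with 3 of 6 tested higher at that level. Over all tested genes of experiment 1, 3% were higher at that level, and 0.843% did not overlap in either direction. No such share was computed for sums of several genes. Oligodendrocyte precursor markers summed to 347 to 381 CPM in water rats and 389 to 469.6 CPM in EtOH rats, also without overlap, with 1 of 4 higher at that level. Ependyma and choroid plexus markers summed to 12.5 to 38.4 CPM and 31.0 to 49.3 CPM, with the 1 tested marker higher at that level. The study ranked Dcx, Dlx1 and Cd24 (neuroblast) and Pdgfra (precursor) among its top genes of experiment 1, all higher with EtOH. Both lists were chosen with that known, so their higher values are not independent support. In experiment 2 the summed ranges of each of these lists overlapped. There 5 of 6 tested vascular markers had a log2 fold change below 0 (median -0.35), as did 5 of 6 microglial markers (median -0.42) and 3 of 4 precursor markers (median -0.44), none at an unadjusted p under 0.05 in edgeR. The remaining vascular marker had a log2 fold change of 1.26, the highest of all tested genes of experiment 2, also not under that p. The vascular sums were lowest in EtOH gavage rats 1 and 2 (135 and 180 CPM) and water gavage rat 1 (161 CPM). The others had 243 to 443 CPM. The microglial sums were lowest in the same rats (147, 182 and 172 CPM, against 254 to 394 CPM). These were the libraries with the highest share of reads outside genes. The lowest precursor sum was in EtOH gavage rat 6 (216 CPM). The astrocyte, oligodendrocyte and microglial sums overlapped between groups in both experiments. For 4 cortical projection neuron markers the ranges were 90.1 to 678 and 233 to 643 CPM in experiment 1, and 1.23 to 526.2 and 2.34 to 407 CPM in experiment 2. Water gavage rats 1 and 5 had cortical sums of 5.35 and 1.23 CPM, and EtOH gavage rats 1 and 2 had 2.34 and 34.7 CPM. These rats also had the highest shares of reads outside genes in experiment 2 (54.5%, 52.8%, 58.0% and 56.4%). The other rats of experiment 2 had cortical sums of 69.2 to 526.2 CPM. What links the cortical sum to the share was not tested. Of the 10 striatal projection neuron markers, 8 had a log2 fold change below 0 in experiment 1, with a median of -0.22, and 5 in experiment 2, with a median of -0.13. In each experiment 1 of the 10 was lower at an unadjusted p under 0.05 in edgeR, beside 2.58% and 0.624% of all tested genes. Their summed ranges overlapped between groups in both experiments. Over all tested genes 49.5% and 50.1% were above 0 in experiments 1 and 2. No marker was at 0 in every library of a group. The part of these markers in the values of the signalling genes was not tested.

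For the gene with the lowest p in each experiment, the tested genes with the most similar pattern over the 22 rats were found, as the smallest root mean square difference of log2 CPM centred within each experiment. For Prkar2b they were Orc5 (0.153), Foxp2 (0.155) and Slc2a13 (0.155), where the SD of Prkar2b itself was 0.316. For Prkce they were L1cam (0.117), Apba1 (0.117) and Bsn (0.126), where its own SD was 0.281. Prkar2b and Prkce both followed the share of reads outside genes in experiment 2, where 48.9% of all tested genes had an absolute r over 0.8. Whether the similar genes share more than that relation was not tested. The search covered 8176 genes.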

How the data were processed

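PolyA+ RNA of each rat was sequenced as paired reads, without strand information in experiment 1 and with it in experiment 2. After alignment to rn6 with TopHat2 2.0.13, the authors counted reads per gene with HTSeq (0.6.0 and 0.5.3p3 are both named), and the deposited values are these raw counts. The annotation release and counting options are not given in the sources used here. Reads placed at several positions are not in the counts, and without strand information reads over overlapping genes cannot be told apart. No pair of rats of a group agreed within sampling noise (chi-square per degree of freedom at least 2.67).

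Left out of library sizes and tests were 5 summary lines per library. Each experiment was fitted alone in edgeR 4.0.16 (R 4.3.3, TMM, quasi-likelihood test) over 8655 genes, those whose base mean exceeded the median of all listed genes (43.6 and 66.4), and P-values were adjusted by Benjamini-Hochberg over all tested genes. The common biological coefficient of variation was 11.1% and 31.3%. Normalized counts refer to the mean effective library size within an experiment. Log2 CPM used a prior count of 2, correlations 100000 permutations, and confidence intervals a level of 95%. The difference between experiments was an interaction over all 22 libraries. The code was tested on simulated data.

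The genes, pathway lists and markers were chosen with earlier results of these data known. Genes outside the set were named by rule, as the 5 list genes with the lowest p in each experiment, 6 fixed striatal genes and the 3 genes nearest by pattern. One gene that the rule gives is not reported here. Alternatives were DESeq2 1.42.0, its size factors in edgeR, other count filters (none, or 10 reads in every library), the newer quasi-likelihood method, a joint fit, the replicate number as a block, the share of reads outside genes as a covariate, and leaving out each rat. Leaving out 3 libraries of experiment 2, or 2 of experiment 1, was added after seeing the data.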

Additional observations from a re-analysis of the deposited data

Results flagged for a closer look

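Over the measured signalling genes and the ratios of PKA subunit counts, 44 groups of values were searched for 1 rat lying apart from its group. Chance alone would give this in about 2.2 groups, and it was found in 1. Adcy7 in EtOH rat 1 of experiment 1 stood at 45.5 normalized counts, against 21.0 to 25.7 in the other 4 EtOH rats, a gap of 0.81 of the range of the group. That library held 35 reads of Adcy7, so its level rests on few reads, and the cause was not tested.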

How the results depend on the processing

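The counts of signalling genes, list genes, ratios and differences between experiments past the threshold stayed at 0 under each alternative run for them. Of the log2 fold changes, differences and ratios recomputed, 20 changed sign, each of a gene or ratio whose main value was not past it. The 1 gene of experiment 1 under an unadjusted p of 0.05, Prkar2b, became 0 in 9 settings (the joint fit, without 2 water rats, and without any one of 7 rats), and list genes of experiment 2 under it were 1 with DESeq2 size factors, 1 with no filter and 2 in DESeq2. In experiment 2, Fyn was 0.0076 with DESeq2 size factors, 0.0081 with no filter, 0.0080 in DESeq2, 0.0045 with the share of reads outside genes as a covariate and 0.0158 without 3 libraries. With that covariate Prkacb was -0.064, Prkar2b -0.018 and Mtor 0.021. The causes were not tested, and the sizes are below the standard errors. Leaving out each rat gave -0.073 to 0.021 for Prkaca, -0.0015 to 0.149 for Prkce and -0.013 to 0.035 for Mtor in experiment 1, -0.015 to 0.113 for Prkacb and -0.054 to 0.021 for Fyn in experiment 2, and -0.032 to 0.140 for the log2 ratio of Prkaca to Prkacb in experiment 1. For Prkar2b in experiment 1 the range was -0.41 to -0.18, and the joint fit of all groups gave an unadjusted p of 0.146 (edgeR). Same-numbered libraries deviated together (r over 0.1) in 1 of 5 and 4 of 6 pairs (mean r -0.00023 and 0.149), and 2 of 10 and 1 of 12 libraries correlated best with their own number, so numbers were not taken as pairs. With the replicate number as a block Prkar2b was -0.28 there (edgeR, unadjusted p = 0.00676, FDR = 0.713), list genes of experiment 2 under an unadjusted p of 0.05 were 5 in place of 0, and the genes under it were 476 of 8655 in experiment 1 and 414 in experiment 2. Over all tested genes that count was 483 in experiment 1, 79 in the joint fit, 820 with no filter and 279 without 2 water rats, and 378 to 739 with each rat left out. In experiment 2 it was 115, 623 in the joint fit, 286 with no filter, 315 in DESeq2 and 30 to 776 with each rat left out. The planned ratio of Adcy7 to Adcy9 was not run because Adcy9 was not among the listed symbols. Depth limits Adcy7 and Creb1 most.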

Other observations

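Between the experiments, which differed in library kit, read length, sequencer, strand, cohort and treatment, Prkacb stood out among the 7 tested signalling genes. Its level was 18.7 to 27.9 CPM over the 10 rats of experiment 1 and 42.1 to 67.0 CPM over the 12 rats of experiment 2. The ratio of the means was 2.19, higher than that of 98.9% of 8176 genes tested in both, whose middle 50% lay between 0.723 and 1.30. Prkaca, the other catalytic subunit gene, had a ratio of 0.817 in the same libraries, and Prkar2b had 1.47. Mtor had 1.002, Fyn and Prkce 0.920 each, and Adcy3 1.18. The kit, the counting, the rats and their treatment (EtOH and gavage) cannot be told apart here, so these ratios only describe the libraries.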
